A study of Mus musculus with 6 samples.

Results

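The genes described are the translation initiation and elongation factors, taken as every gene of the deposited table whose symbol begins with Eif or Eef, without the eIF2α kinases (symbols that begin with Eif2ak). There were 61 such genes, with 194 transcripts, among 21949 genes and 50660 protein-coding transcripts. RNA was sequenced from pancreatic acinar cells of adult mice, sorted by flow cytometry, in 3 control libraries (labelled WT) and 3 libraries from mice given cerulein (labelled WT+Cerulein). All mice, controls included, were of a CD1-enriched strain and carried ElastaseCreER, a tamoxifen-inducible Cre driven by an acinar enzyme promoter, with a ROSA26YFP reporter. Cerulein mimics the gut hormone cholecystokinin and, in excess, gives mice an acute pancreatitis; treated mice had 7 injections per day of treatment, with treatment days alternating within 3 days, and then recovered for 1 day. The labels do not say that the libraries of a group came from separate mice, so p-values measure the spread between these libraries, which may be technical.

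Translation starts when eIF2 brings the initiator tRNA to the small ribosomal subunit, eIF3 and eIF1 hold that subunit ready, and eIF4F (the cap-binding eIF4E, the scaffold eIF4G and the helicase eIF4A) brings it to the mRNA cap. The guanine nucleotide exchange factor eIF2B recharges eIF2, 4E-binding proteins hold eIF4E back, and the elongation factors eEF1 and eEF2 then deliver aminoacyl-tRNAs and move the ribosome. Acinar cells make secreted enzymes at one of the highest rates of any cell, and hormone stimulation is known to act on several of these factors through phosphorylation, which RNA levels do not show.

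Levels are FPKM (fragments per kilobase of transcript, divided by the size of the library), summed over the transcripts of a gene. Many deposited values had lost their decimal mark: of the 194 transcripts, 79 to 89 per library had a value that could stand for 2 or 3 numbers a factor of 10 apart. The mark was placed where the value then stood for a whole number of sequenced fragments. Eif2s1, for instance, placed at its annotated length, then held 21, 45 and 64 fragments in control libraries 1 to 3 and 224, 407 and 479 in cerulein libraries 1 to 3. For 14 of the 61 genes a transcript length other than the annotated one was fitted as well. For those, whole fragments are no check of the placement. They are Eef2, Eif1a, Eif1ad, Eif1b, Eif2b5, Eif3a, Eif3d, Eif3e, Eif3g, Eif3h, Eif3k, Eif3l, Eif4b and Eif4ebp1. In this way 43 of the 61 genes had a value in all 6 libraries, 37 of these reached 1 FPKM in at least 3 libraries and were tested, 6 did not reach it, and 18 had at least 1 open value. Because placement also used the distance between libraries of a group, the spread within groups may be understated.

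The libraries differed in more than the treatment. For a transcript of 2000 bases, 1 FPKM corresponded to 6.45 to 8.09 fragments in control libraries and 23.1 to 34.0 in cerulein libraries, so low levels were measured more precisely after cerulein. All 14 acinar markers had lower mean levels after cerulein and 12 of them passed the test, with a summed level of 398000 to 422000 FPKM in control libraries and 57100 to 102000 after cerulein. Macrophage and leukocyte markers summed to 1.41 to 11.5 FPKM in control libraries and to 40.2 to 81.6 after cerulein (6 of 6 tested markers rose, and the other 4 of the list had open values). Fibroblast and matrix markers summed to 1.74 to 40.2 and to 209 to 307 FPKM (5 of 7 tested markers rose), and no restored marker of either list was at 0 in every control library. The part of these cells in the results below was not tested, and fewer acinar cells cannot be told apart from less RNA per acinar cell.

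Eif6 was the only factor gene that changed at an adjusted p under 0.05. It encodes a factor needed to make the large ribosomal subunit, which it keeps from joining the small subunit too early, and lies on the minus strand at chr2:155819832-155826925 (GRCm38). Its level was 5.33, 0.933 and 4.29 FPKM in control libraries 1 to 3 and 14.7, 13.6 and 11.4 FPKM in cerulein libraries 1 to 3. The lowest cerulein library was above the highest control library, and control library 2, with only 5 fragments, was the lowest. Mean levels were 3.52 ± 2.30 and 13.2 ± 1.70 FPKM (SD, n = 3 each). On the scale of log2(FPKM + 1), on which all fold changes here are given, Eif6 rose by 1.82 (SE 0.43, 95% interval 0.86 to 2.77, adjusted p = 0.0211 by limma). The call was lost without cerulein library 1 (adjusted p = 0.0774), library 2 (0.0839) or library 3 (0.0726), where the fold change was still 1.74, 1.80 and 1.91. It was also lost with a pseudocount of 0.1 (adjusted p = 0.0502) and without the filter on low levels (0.0855).

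**Figure D1:**
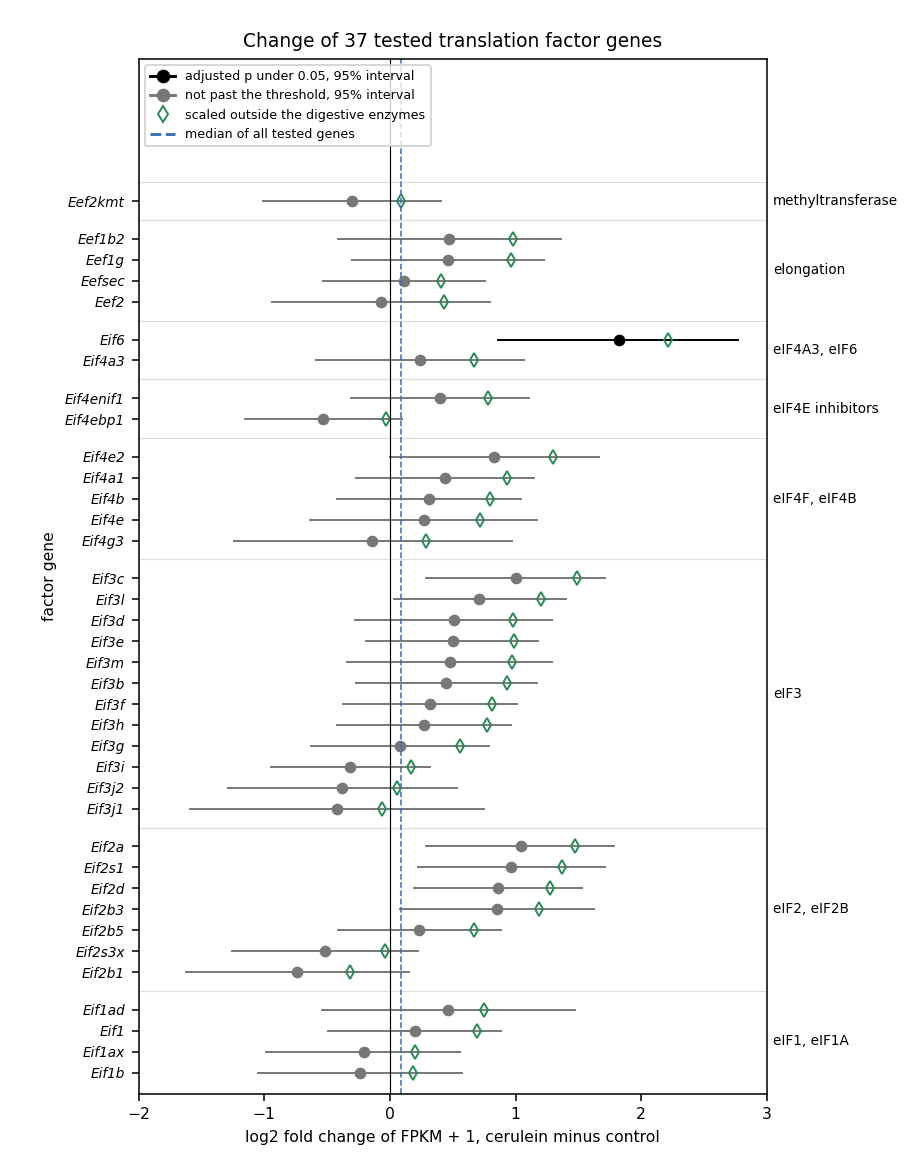
Log2 fold change (cerulein minus control, FPKM + 1) of the 37 tested factor genes, grouped by role, with 95% intervals; diamonds give the fold change when libraries are scaled outside the digestive enzymes, and the dashed line marks the median of all tested genes, 0.09. Eif6 alone is past the threshold, at 1.82, and most other points lie between 0 and 1.

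The other 36 tested factor genes did not pass. Among all 7306 genes tested, 939 passed (12.9%), 528 higher (7.23%) and 411 lower (5.63%), against 1 of 37 factor genes (2.7%). At an unadjusted p under 0.05 the counts were 8 of 37 factor genes (21.6%) and 27.9% of all genes. A fold change within 1 log2 unit of 0 was found for 35 of 37 factor genes (94.6%) and for 80.9% of all genes. The median was 0.31 for factor genes and 0.09 for all genes, and 26 of 37 (70.3%) were positive, beside 55.1% of all genes. Only 8 of the 37 had a 95% interval that lay wholly within 1 log2 unit of 0, so for the rest these libraries leave room for a change of 2-fold. The scale of FPKM + 1 understates changes of low genes. For those of the 8 at low levels, such as Eefsec at 0.902 to 1.70 FPKM in control libraries, 2-fold is therefore not excluded either.

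How many factors passed depended on the scaling. FPKM divide by a library total. The digestive enzymes among the restored genes summed to 596632 to 630563 FPKM in control libraries but 102139 to 166090 FPKM after cerulein. The other restored genes also summed to less after cerulein, 68386 to 73179 FPKM against 94557 to 109252 FPKM in control libraries. Scaling to that second sum therefore raised levels after cerulein relative to the controls. Genes with open values are in neither sum. When libraries were scaled to the sum outside those enzymes, the median of all genes moved up by 0.35, 84.5% of the calls over all genes were higher (1274 higher, 234 lower) instead of 56.2%, and the median factor gene stood at 0.77 against 0.44 for all genes. On that scale 9 of the 37 factor genes rose and none fell, beside 17.4% and 3.2% of all genes: Eif2s1, Eif2a, Eif2d, Eif2b3, Eif3c, Eif3e, Eif3l, Eif4e2 and Eif6. Centring on the median gene instead left Eif6 alone (fold change 1.74, adjusted p = 0.0222), where 6.5% of all genes rose and 6.46% fell. Testing fragments in place of summed FPKM, with 7.88% of all genes higher and 6.3% lower, called Eif6 and Eif3c.

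On the deposited scale, in 10 of the 37 (27.0%) every cerulein library was above every control library, against 17.7% of all genes, and in 1 of the 37 (2.7%), Eif4ebp1, every cerulein library was below, against 14.7%. The 10 were Eif4a1 and the 9 genes that rose when libraries were scaled outside the enzymes. After that scaling every cerulein library was above every control library in 23 of the 37, against 33.5% of all genes, and below in 0, against 7.23%. Eif4ebp1 was then at 52.4, 42.6 and 43.8 FPKM in control libraries and 50.9, 39.0 and 46.1 after cerulein, and its groups overlapped.

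Of 7 tested genes for eIF2, eIF2B and their helpers none passed, 5 fold changes were positive and 2 negative, and the median was 0.85. Eif2s1, which encodes the α subunit that the stress kinases phosphorylate, was at 1.85, 3.44 and 4.46 FPKM in control libraries and 5.46, 7.89 and 7.90 after cerulein. The groups did not overlap, and the fold change of 0.96 (SE 0.34, adjusted p = 0.0892 by limma) did not pass. Eif2a, an unrelated initiator tRNA carrier, was at 2.80, 4.69 and 6.36 FPKM and then 11.5, 11.4 and 7.81, a fold change of 1.04 (adjusted p = 0.0732). Eif2d, which can also load tRNA without eIF2 and helps recycle ribosomes, was at 4.27, 2.48 and 3.71 FPKM and then 7.95, 6.12 and 7.10 (0.86, adjusted p = 0.0905). Both lie across another protein-coding gene (Serp1 for Eif2a and Rassf5 for Eif2d), whose reads the counting could mix in.

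The 3 tested eIF2B genes did not pass. Eif2b3, part of its catalytic subcomplex, had 0.472, 1.87 and 1.97 FPKM in control libraries and 3.91, 3.10 and 2.65 after cerulein (0.85, adjusted p = 0.141), but control library 1 rested on 2 fragments. Eif2b5, the catalytic subunit itself, stayed between 5.28 and 7.13 FPKM in control libraries and between 6.64 and 9.03 after cerulein (0.23, 95% interval -0.41 to 0.88). Eif2b1, a regulatory subunit that senses phosphorylated eIF2, had the lowest fold change of all tested factors, -0.74 (adjusted p = 0.262). Its control libraries held 6.78, 3.90 and 13.3 FPKM and its cerulein libraries 4.93, 3.95 and 3.01, so the groups overlapped.

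The γ subunit of eIF2 has a copy on each sex chromosome, and the copies did not follow the treatment. Eif2s3y, on the Y chromosome, was at 0 in control libraries 1 to 3 and in cerulein library 1, and at 2.59 FPKM (68 fragments) and 6.44 FPKM (199 fragments) in cerulein libraries 2 and 3. A count of 0 allows up to 3 fragments, or 0.511, 0.446 and 0.408 FPKM in control libraries 1 to 3 and 0.142 FPKM in cerulein library 1. The other Y-linked genes Uty and Kdm5d were at 0 in the same 4 libraries and at 0.90 and 0.251 FPKM in cerulein library 2 and 1.94 and 0.841 FPKM in cerulein library 3. The X-linked copy Eif2s3x was at 32.0, 22.6 and 22.5 FPKM in control libraries and 24.4, 17.4 and 12.4 after cerulein, lowest in the libraries with Y-linked reads (fold change -0.52, adjusted p = 0.345). Libraries with and without Y-linked reads were thus unequally divided between the groups, 0 of 3 and 2 of 3, and the part of this in the other results was not tested. Against cerulein library 1 alone, a fit that assumes that this library varies like the controls, Eif6 had a fold change of 1.97 and did not pass (adjusted p = 0.65 by limma).

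**Figure D2:**
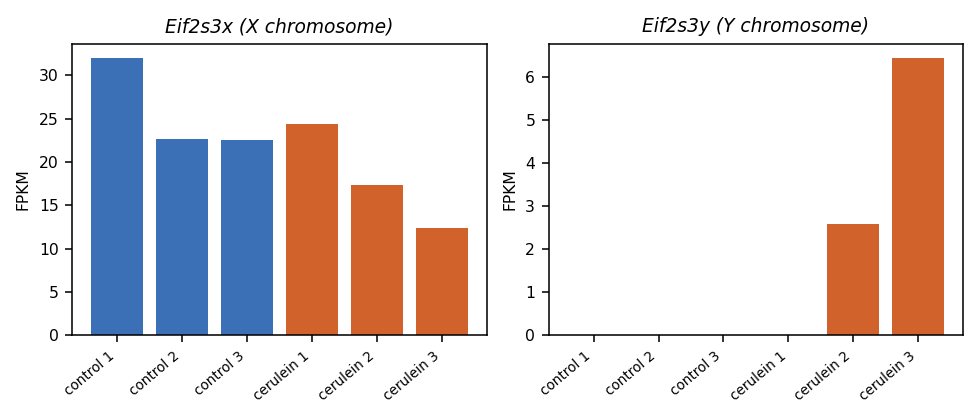
FPKM of the eIF2γ genes in each library, the X-linked copy on the left and the Y-linked copy on the right (bars are single libraries, each axis starting at 0). The Y-linked copy is seen only in cerulein libraries 2 and 3, at 2.59 and 6.44 FPKM.

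The complex eIF3, the largest initiation factor, was measured almost whole: of its 14 genes in the table (Eif3j has 2 copies), 12 were tested. None passed, 9 fold changes were positive and 3 negative, and the median was 0.39. Eif3c, a core subunit that contacts eIF1 and eIF5, had the highest fold change of these, at 20.2, 23.9 and 37.7 FPKM in control libraries and 60.7, 49.1 and 51.6 after cerulein. Its groups did not overlap and its fold change was 1.00 (SE 0.32, adjusted p = 0.0696 by limma). It passed when fragments were tested in place of summed FPKM (0.99, adjusted p = 0.0475). Eif3b, Eif3d, Eif3e and Eif3m had fold changes of 0.45 to 0.51 and Eif3f and Eif3h of 0.32 and 0.27. Eif3l, an outer subunit, was at 23.1, 29.2 and 28.8 FPKM and then 58.5, 42.5 and 35.8 (0.71, adjusted p = 0.163).

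Within eIF3, the subunits that were least positive were Eif3g, Eif3i and the Eif3j copies. Eif3i, which with Eif3g and Eif3b forms a mobile module that scans with the ribosome, was at 33.8, 28.6 and 31.4 FPKM and then 29.2, 24.7 and 21.2 (-0.32, 95% interval -0.95 to 0.32). The loosely bound subunit encoded by Eif3j1 and Eif3j2, near-identical genes whose reads counting may split, had fold changes of -0.42 and -0.38. Eif3j1 ranged from 0.598 FPKM in control library 1 to 5.98 in control library 2, and without control library 1 it fell by 1.13 (adjusted p = 0.0263). Levels per length differed widely between subunits of 1 complex: in control libraries Eif3h was at 66.1 to 85.4 FPKM, Eif3d at 10.1 to 22.5 and Eif3j2 at 3.73 to 13.7.

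**Figure D3:**
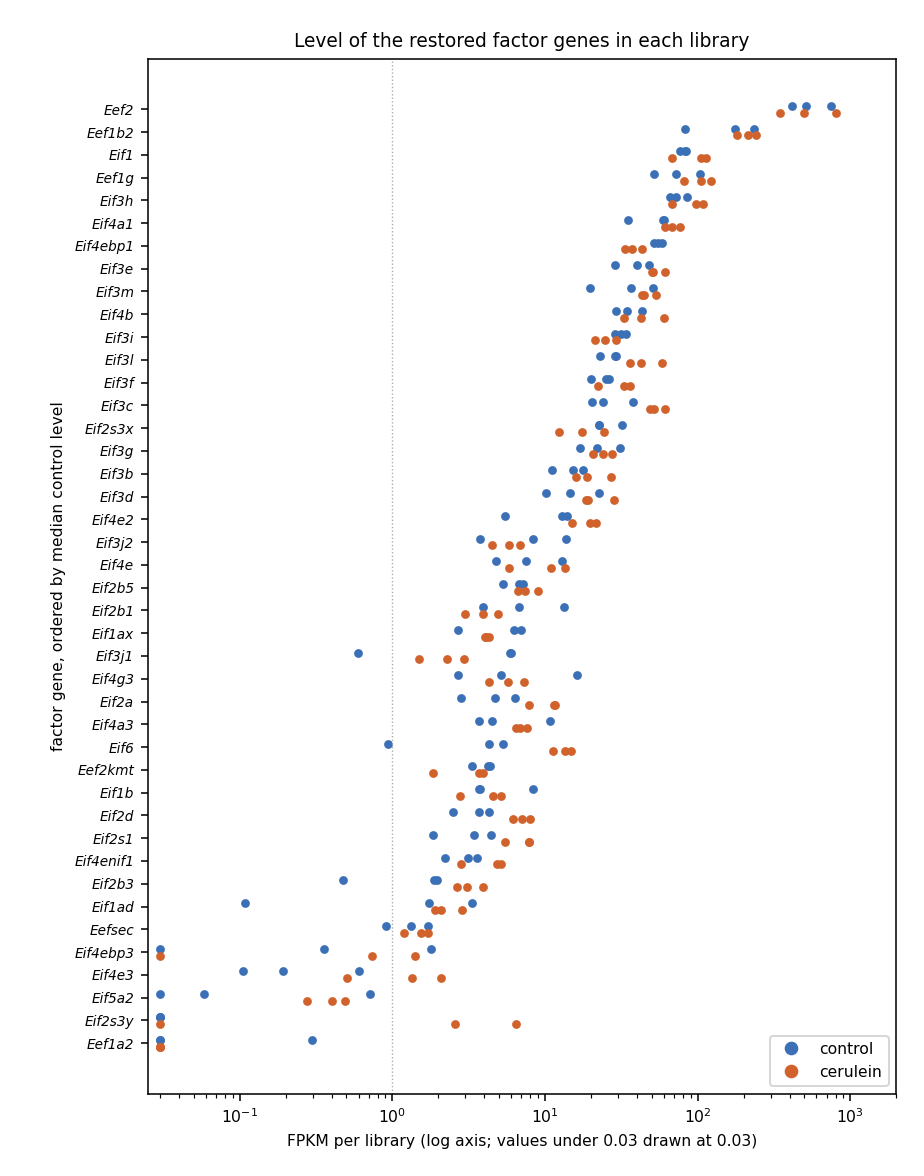
FPKM of the restored factor genes in each library on a log axis, ordered by their median in control libraries; Eif4e1b, at 0 in all 6 libraries, is not drawn, and the dotted line marks 1 FPKM. Eef2 leads at 416 to 753 FPKM in control libraries, and the cerulein points of Eif6 stand clear of its control points.

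At the cap, the binding protein and its inhibitor had opposite signs without passing. Eif4ebp1, whose product blocks eIF4E until mTORC1 phosphorylates it, was at 58.4, 54.8 and 51.7 FPKM in control libraries and 43.4, 33.6 and 37.1 after cerulein. Every cerulein library was lower on the deposited scale, yet the fold change was -0.53 (SE 0.28, adjusted p = 0.259 by limma), and it came to -0.03 when libraries were scaled outside the enzymes. Eif4e itself was at 4.74, 7.47 and 12.8 FPKM and then 11.0, 5.77 and 13.6, fully overlapping, with a fold change of 0.27 that was -0.39 when fragments were counted in place of summed FPKM. The log2 ratio of Eif4ebp1 to Eif4e within a library, each as FPKM + 1, was 2.67 ± 0.72 in control libraries and 1.88 ± 0.48 after cerulein (SD, n = 3 each), a difference of -0.79 with an exact two-sided permutation p of 0.2, where the smallest possible is 0.1. Without control library 1 the difference was -0.45, and without control library 3 it was -1.17. As placed, the inhibitor's transcript was above the cap-binding protein's in all 6 libraries, by 1.39 to 3.37 log2 units. The placement of Eif4ebp1 rests on a fitted length, and its lowest possible values were 3.36 to 5.84 FPKM.

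The other cap and helicase genes did not pass on the deposited scale. Eif4e2, a weaker cap-binding relative that serves translational repression, was at 5.44, 13.0 and 13.9 FPKM and then 15.1, 21.6 and 19.7 (0.83, adjusted p = 0.179), with no overlap between groups, and rose when libraries were scaled outside the enzymes (1.30, adjusted p = 0.0264). Eif4a1, the main helicase gene, was at 35.0, 60.4 and 58.9 FPKM and then 61.0, 76.0 and 67.7 (0.44, 95% interval -0.27 to 1.15), again without overlap. Eif4g3, a scaffold paralog, was at 16.3 FPKM in control library 1 but 5.17 and 2.68 in libraries 2 and 3, and at 4.33, 5.70 and 7.30 after cerulein. Eif4b, which stimulates the helicase, had a fold change of 0.31 and the eIF4E transporter Eif4enif1 of 0.40.

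Genes for scanning and start site selection showed no common direction: Eif1 was at 76.8 to 83.7 FPKM in control libraries and 67.9 to 113 after cerulein (0.20, 95% interval -0.49 to 0.88). Its paralog Eif1b had a fold change of -0.24, and the log2 ratio of Eif1b to Eif1 moved from -3.79 ± 0.53 to -4.22 ± 0.13 (SD, n = 3 each, exact two-sided permutation p = 0.2). That difference of -0.43 was -0.13 without control library 2. Eif1ax, an X-linked gene for the scanning factor eIF1A, and Eif1ad, which encodes a relative of it, had fold changes of -0.21 and 0.46. Eif4a3, an eIF4A relative that sits in the exon junction complex, stood at 0.24.

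Of the elongation factor genes, 4 were tested (Eef2, Eef1b2, Eef1g and Eefsec) and none passed. Eef2, which moves the ribosome by a codon, was at 753, 514 and 416 FPKM in control libraries and 800, 500 and 348 after cerulein, a fold change of -0.07 (SE 0.39, 95% interval -0.94 to 0.80). The groups covered nearly the same range, and the sign turned when libraries were scaled outside the enzymes (0.43). Eef1b2 and Eef1g, subunits of the exchange factor for eEF1A, had fold changes of 0.47 and 0.46, with their lowest level in control library 1 (82.4 and 51.8 FPKM). Eefsec, which inserts selenocysteine, was at 0.902 to 1.70 FPKM in control libraries and 1.18 to 1.71 after cerulein (0.11). Eef2kmt, which methylates eEF2, stood at -0.30.

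Eef1a1 had the highest placed level of any factor. In control library 1, open values of Eif4a2 and Eif4g1, up to 1943 and 2143 FPKM, could lie above it. Eef1a1 was at 1206, 1367 and 2188 FPKM in control libraries and 2053 FPKM in cerulein library 3. Its open values could only lie between 2669 and 3001 FPKM in cerulein library 1 and between 2284 and 2633 in cerulein library 2. Whatever the placement, the cerulein libraries were above control libraries 1 and 2, while cerulein library 3 was below control library 3. Its muscle and nerve paralog Eef1a2 held 2 fragments in control library 1 (0.297 FPKM) and none in the other 5 libraries. The germline cap-binding gene Eif4e1b had none in any, and Eif4e3, Eif4ebp3 and Eif5a2 were also under the filter, with no value above 2.09 FPKM.

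Of the 18 genes with open values, 6 could be placed in no library (Eef2k, Eif2b4, Eif4a2, Eif4ebp2, Eif4g2 and Eif5), 4 in 2 to 4 libraries (Eef1a1, Eef1d, Eef1e1 and Eif3a) and 8 in 5 libraries. None was tested. Under every possible placement, however improbable, no factor gene kept its groups apart, the tested ones included. With placements holding 95% of the posterior, 11 of the 37 tested genes and 1 of these 18 did. Eif4g1, the main eIF4F scaffold, was at 76.1 and 43.7 FPKM in control libraries 2 and 3 and at 36.2, 27.4 and 32.2 after cerulein. Its most probable value in control library 1 was 94.3 FPKM (posterior 0.92), and with placements holding 95% of the posterior all cerulein libraries were lower, though 24.6 FPKM remained possible there. Eif5b, which joins the ribosomal subunits, was at 26.9 and 14.2 FPKM in control libraries 2 and 3 and at 6.56, 7.83 and 7.55 after cerulein, but control library 1 most probably held 5.09 (posterior 0.66) or 50.9 (0.34), with up to 509 possible.

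Eif5a, whose product carries the amino acid hypusine and helps stalled ribosomes, was at 80.6, 76.2 and 71.5 FPKM in control libraries and 59.4 and 59.7 in cerulein libraries 2 and 3. The most probable value in cerulein library 1, 82.1 FPKM, fell just short of the posterior of 0.95 that was asked for. Eif3a, the scaffold of eIF3, was at 26.5 FPKM in control library 1 and 49.1, 41.5 and 33.9 after cerulein, with 6.06 or 60.6 the most probable values in control library 2 and 4.80 or 48.0 in control library 3 (values up to 606 and 480 were possible). The helicase paralog Eif4a2 could lie anywhere from 12.3 to 1234 FPKM in cerulein library 3, and Eif4ebp2 at 6.72, 67.2 or 672 FPKM in control library 1, so their ratios to Eif4a1 and Eif4ebp1 were not computed. Eef2k, the kinase that inhibits eEF2, could lie from 9.42 to 312 FPKM in control library 1.

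The remaining open genes lacked few values. Eif1a, an autosomal eIF1A gene, was at 24.0 and 12.9 FPKM in control libraries 2 and 3 and 13.0, 18.5 and 19.8 after cerulein, with 4.57 or 45.7 most probable in control library 1. Eif2s2, the β subunit of eIF2, was at 10.3 and 34.4 FPKM in control libraries 1 and 3 and 28.8, 35.8 and 28.2 after cerulein, with 5.10 or 51.0 most probable in control library 2. The placed values of these genes overlapped between groups, as did those of Eif2b2, a regulatory eIF2B subunit, at 7.71 and 11.85 FPKM in control libraries 1 and 3 and 9.32, 9.28 and 6.79 after cerulein. Eif3k, a small eIF3 subunit, was at 68.0 and 80.8 FPKM in control libraries 1 and 3 and, lower, at 59.9, 63.7 and 64.7 after cerulein, while 141 or 14.1 was most probable in control library 2. Eif4h, which like eIF4B aids the helicase, was at 48.3, 47.4 and 22.1 FPKM in control libraries and 29.7 and 28.8 in cerulein libraries 1 and 2. Eef1e1, which encodes a scaffold protein of the aminoacyl-tRNA synthetase complex, was at 0.982, 2.31 and 1.01 FPKM in control libraries, and its lowest possible values after cerulein were 2.12, 3.91 and 4.85. Eef1d, Eif2b4, Eif4g2 and Eif5 had possible values too far apart to describe.

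Other parts of the translation machinery were read from the same fit. Among 8 tested genes for the eIF2α kinases, the phosphatase subunits that undo their mark and their targets, 1 fell and none rose (12.5%, beside 12.9% of all genes), with a median of -0.31. That gene was Ppp1r15b, the constitutive phosphatase subunit, at 13.7, 24.9 and 21.0 FPKM in control libraries and 6.41, 7.61 and 7.44 after cerulein (-1.32, SE 0.31, adjusted p = 0.0212 by limma). The call was lost when scaled outside the enzymes (-0.86, adjusted p = 0.0641), without the filter on low levels (0.0504) and without control library 2 (0.0694) or cerulein library 1 (0.0776), 2 (0.0943) or 3 (0.101). Its inducible counterpart Ppp1r15a was at 18.9, 23.7 and 11.8 FPKM and then 15.9, 22.3 and 19.0 (0.11, adjusted p = 0.865). The kinase PERK (Eif2ak3), which senses stress in the endoplasmic reticulum, was at 20.8, 24.8 and 18.9 FPKM and then 21.2, 13.9 and 15.3 (-0.35, adjusted p = 0.494). Atf4, translated when eIF2α is phosphorylated, was at 47.1, 73.4 and 101.9 FPKM and then 55.6, 54.5 and 49.7 (-0.40, adjusted p = 0.483).

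The regulators that link growth signals to the factors included 3 genes that passed. Of 11 tested genes of mTORC1 and S6 kinase signalling, 1 rose and 2 fell (27.3%, beside 12.9% of all genes), with a median of -0.02. Larp1, an RNA-binding protein that holds back mRNAs with a terminal oligopyrimidine start, was at 63.6, 85.8 and 61.6 FPKM in control libraries and 17.7, 15.4 and 15.8 after cerulein. It fell by 2.03 (SE 0.29, adjusted p = 0.00192 by limma). Mknk1, a kinase that phosphorylates eIF4E on the eIF4G scaffold, was at 32.6, 33.4 and 43.0 FPKM and then 12.9, 8.18 and 5.63, and fell by 1.97 (SE 0.34, adjusted p = 0.00522). For both genes the groups lay far apart, and they passed when scaled outside the enzymes (adjusted p = 0.00456 and 0.0119) and with any 1 library left out.

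Sesn2, a leucine sensor that restrains mTORC1, was at 2.67, 0.747 and 1.499 FPKM in control libraries and 6.23, 4.36 and 4.02 after cerulein and rose by 1.20 (SE 0.35, adjusted p = 0.0475 by limma). That call was lost without control library 2 (adjusted p = 0.128) or 3 (0.0811) and without cerulein library 1 (0.159), 2 (0.149) or 3 (0.136). It was also lost with a pseudocount of 0.1 (0.0676), without the filter on low levels (0.116), with a wider replicate spread (0.0523) and when centred on the median gene (0.0576). Mtor and Rptor, the kinase and the scaffold of mTORC1, had fold changes of -0.11 and -0.02.

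**Figure D4:**
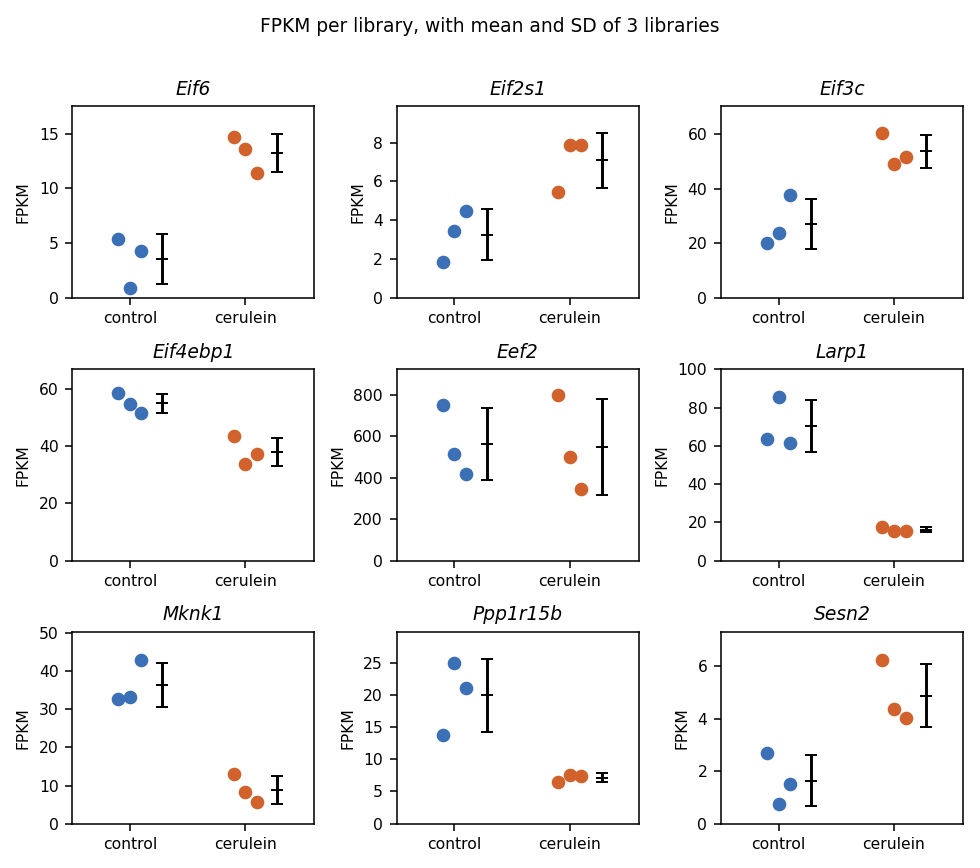
FPKM per library of 5 factor genes (Eif6, Eif2s1, Eif3c, Eif4ebp1 and Eef2) and of the 4 regulators that changed (Larp1, Mknk1, Ppp1r15b and Sesn2); bars beside the points give the mean and SD of 3 libraries, and axes start at 0. Larp1 drops from at least 61.6 to at most 17.7 FPKM and Eif6 rises from at most 5.33 to at least 11.4 FPKM, whereas the ranges of Eef2 overlap, at 416 to 753 and 348 to 800 FPKM.

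No gene of the remaining lists passed on the deposited scale. The 35 tested ribosomal protein genes (of 80) had a median of 0.39 with 29 positive and 6 negative, and 4 were at an unadjusted p under 0.05, beside 27.9% of all genes. The 15 cytosolic aminoacyl-tRNA synthetases had a median of 0.41 with 13 positive, and 2 at an unadjusted p under 0.05. Scaled outside the enzymes, 5 ribosomal protein genes, 3 synthetases and 1 gene of the release and poly(A)-binding list rose, where 17.4% of all genes did. Of 9 tested genes for release, ribosome recycling and poly(A) binding, with a median of 0.06, Pabpc1 had the highest fold change (0.90, adjusted p = 0.0836) and Gspt1, a release factor, the lowest (-0.66, adjusted p = 0.171), and neither had overlapping groups. The 7 mitochondrial translation factors had a median of -0.29 with 2 positive and 5 negative. The cytosolic factor, synthetase and ribosomal protein medians thus lay close to each other, between 0.31 and 0.41, while the median over all genes was 0.09.

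**Figure D5:**
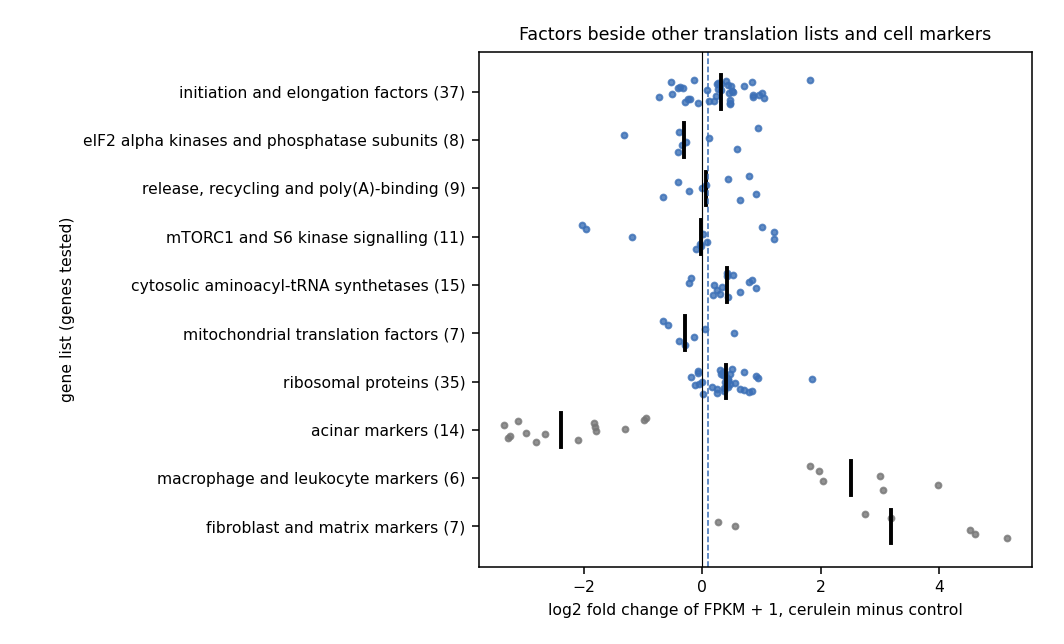
Log2 fold change (cerulein minus control, FPKM + 1) of each tested gene in the factor list, 6 other translation lists and 3 cell marker lists, with the number tested in brackets, black bars for list medians and a dashed line for the median of all genes, 0.09. The factors centre on 0.31, next to the synthetases and ribosomal proteins, whereas acinar markers centre on -2.38 and leukocyte and matrix markers on 2.51 and 3.18.

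Since Larp1 acts on mRNAs that begin with a C and a run of pyrimidines, the starts of the factor genes were read from RefSeq promoter windows (GRCm38.p6), which held 47 of the 61 genes. The search was for a C followed by at least 5 C or T on the sense strand, not preceded by C or T, that began within 10 bases of the annotated start. It was found for 8 of 47 factor genes (17.0%), 22 of 60 ribosomal protein genes (36.7%) and 4292 of 27025 genes in all (15.9%). The 30 bases around the annotated start are shown with the run in capitals. Eif3f had the longest run of a factor gene as counted within these 30 bases. The run of Eif4b and a run of Eif4enif1 reached the end of their window and may be longer. Eef1a1 had the highest placed level of a factor, and the ribosomal protein gene Rps6 is a textbook case. Whether the mRNAs begin at these bases was not tested.
Eif3f: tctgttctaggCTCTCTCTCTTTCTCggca
Eef1a1: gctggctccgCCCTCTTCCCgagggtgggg
Rps6: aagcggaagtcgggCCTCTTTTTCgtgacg
These windows lie at chr7:108934400-108934429 on the plus strand for Eif3f, chr9:78481710-78481739 on the minus strand for Eef1a1 and chr4:86857353-86857382 on the minus strand for Rps6. The factor genes with a run included only 4 tested ones, with a median fold change of 0.36, against 0.24 for the 25 tested ones without. The search relied on annotated starts and found a run in only 22 of 60 ribosomal protein genes. It cannot tell which factor mRNAs Larp1 acts on, so these medians do not bear on Larp1. Eif3f itself was at 25.1, 20.1 and 26.1 FPKM in control libraries and 32.9, 36.1 and 22.1 after cerulein (0.32, adjusted p = 0.549 by limma).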

How the data were processed

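The deposited table holds FPKM per protein-coding transcript and library. Per the submitters' processing notes, fastp, HISAT2, featureCounts and DESeq2 were used with the build mm10. The tool that gave the deposited FPKM and any use of strand are not given in the sources used here. A spreadsheet had removed decimal marks from 18.05% to 21.38% of the values of a library, so the unit was recorded as other than plain FPKM. FPKM times effective length (GENCODE M21, which held 99.08% of the transcripts) and a library constant gives fragments: 80.65% to 83.5% of the genes with intact values lay within 0.01 of a whole number. Marks were placed by whole fragments and by the other libraries of the group (spread 0.6 log2), at a posterior of at least 0.95, with totals within 5% merged. A length of 1 transcript could differ from the annotation by up to 1500 bases, as for 14 of the 61 factor genes, Eif4ebp1 among them. Of 445 intact values treated as lost, 402 were placed and 401 of these were right. Most of them, 308, were 1 to under 10 FPKM. Only 49 were 10 to under 100 FPKM, of which 44 were placed and 43 were right. Values written with an exponent, read as under 1e-04, were set to 0.

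Genes restored in all 6 libraries with at least 1 FPKM in 3 of them were tested with limma 3.58.1 (R 4.3.3) on log2(FPKM + 1), with a mean-variance trend, and p-values were adjusted over all 7306 genes by Benjamini-Hochberg. A fold change on this scale understates that of low genes. Fits were checked on simulated data. Named genes were those past an adjusted p of 0.05, a set of core factors, and the largest passing changes of the other lists. Other members are given because every member is accounted for. Members and lists were chosen with earlier results of these data known. Coordinates are those of GENCODE M21 on GRCm38. Alternatives were another pseudocount, other filters, scalings and placement settings, a replicate block, leaving out each library and, added after seeing the data, fragments in place of summed FPKM and cerulein library 1 alone. The dose in the labels has a unit that cannot be right and was not used.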

Additional observations from a re-analysis of the deposited data

How the results depend on the processing

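Over all genes 939 passed. The count was 426 without a filter on low levels, 624 with a mean of at least 5 FPKM, 1508 when scaled outside the enzymes, 622 with a replicate spread of 1.5, and 283 to 1645 when 1 library was left out (highest without control replicate 1, lowest without cerulein replicate 3). Fitting the controls against cerulein library 1 alone, which assumes that this library varies like the controls, left 9. Factor genes that rose, 1 in the chosen fit, numbered 0 with a pseudocount of 0.1, 0 without the filter, 3 with the stricter filter (Eif6, Eif2a and Eif3c), 9 when scaled outside the enzymes, 2 with fragments in place of summed FPKM, 0 with cerulein library 1 alone (Eif6 1.97, adjusted p = 0.65 by limma), and 0 to 3 with 1 library left out. Factor genes that fell numbered 0 to 1 with 1 library left out. In the other translation lists 1 gene rose and 3 fell. Those that rose numbered 0 with a pseudocount of 0.1, without the filter, with the stricter filter, centred on the median gene, with the wider replicate spread and with cerulein library 1 alone, 12 when scaled outside the enzymes, and 0 to 6 with 1 library left out. None fell with cerulein library 1 alone. The log2 ratio of Eif2s3y to Eif2s3x differed by 2.10 between groups with a pseudocount of 1 and by 4.14 with 0.1.

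Same-numbered libraries of the 2 groups deviated from their group means with correlations of 0.16, 0.12 and -0.036. For differently numbered libraries the correlations ran from -0.18 to 0.11. With 3 libraries per group these values cannot tell whether the numbers pair the libraries, and the labels do not say so. With the replicate number as a block, Eif6 remained the only factor gene past the threshold (adjusted p = 0.0165 by limma) and 2 genes of the other lists rose.

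No fold change that passed changed sign in any alternative run. Among factor genes that did not pass, scaling outside the enzymes turned Eef2 (0.43), Eef2kmt (0.09), Eif1ax (0.20), Eif1b (0.18), Eif3i (0.17), Eif3j2 (0.06) and Eif4g3 (0.29) positive. Counting fragments turned Eif4e (-0.39). Cerulein library 1 alone turned Eef2 (0.55), Eif1 (-0.25) and Eif4enif1 (-0.04). With 1 library left out, values that crossed 0 ranged from -0.38 to 0.22 for Eef2, -0.02 to 0.23 for Eefsec, -0.08 to 0.90 for Eif1ad, -0.41 to 0.09 for Eif1b, -0.12 to 0.30 for Eif3g, -0.02 to 0.65 for Eif4a3, -0.04 to 0.60 for Eif4e and -0.63 to 0.48 for Eif4g3. Low levels rested on few fragments, in control libraries above all. Eef2, whose sign also turned, held 5411 to 7743 fragments in control libraries. The causes of these shifts were not tested.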
